A study of Homo sapiens with 6 samples.

Results

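E2F2, E2F3 and E2F5 are transcription factors of the E2F family, which control the genes a cell needs to enter S phase. They were found by name in a table of 14686 genomic regions where the 3' ends of polyadenylated transcripts gather, and 4 regions carry these names, 1 for E2F2, 1 for E2F3 and 2 for E2F5. Endoderm at day 6 had been derived from H9, a widely used line of human embryonic stem cells (hESCs), with activin A (100 ng/ml) in RPMI medium whose serum was raised stepwise, 0% at first, then 0.2%, then 2%. It was set against undifferentiated H9 hESCs of passage 51, kept on Matrigel in medium conditioned by mouse feeder cells. Cell type cannot be told apart from medium, serum or activin A in this design. Each type gave 3 libraries, labelled G1, G1/S and S, taken at 0, 3 and 6 h in endoderm and at 0, 2 and 3 h in hESCs. No type and phase has a second library, and how cells were brought into phase is not given in the sources used here.

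An E2F protein binds DNA together with a DP partner. In G1 the complexes are held in check by pocket proteins of the RB family, and when cyclin-dependent kinases phosphorylate those proteins the E2F is released and its targets, among them cyclin E and replication genes, are transcribed. E2F2 and E2F3, like E2F1, are classed as activators, and E2F5 is classed as a repressor that works with the pocket proteins p107 and p130. Pluripotent stem cells are known for a short G1 phase, which lengthens as they differentiate.

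The labelled cell types were checked against marker genes. All 8 measured definitive endoderm markers were higher in endoderm by test, where 6.90% of all regions were called higher and 7.60% lower. The summed signal of these 8 markers was 8279 to 17230 in endoderm and 442.5 to 533.4 in hESCs. Of 7 measured hESC markers 2 fell (SOX2 and DNMT3B), 1 rose (SALL4) and 4 did not pass, and 3 of the 7 had a positive log2 difference. Their summed signal was 950.8 to 1349 in endoderm and 2168 to 2649 in hESCs. SOX2 weighs most in that sum, with a mean of 557.1 in endoderm and 1615 in hESCs, so the sum shows no general loss of these markers. The pluripotency factor NANOG had 0 regions in the table used here. Whether cells that kept hESC transcripts bear on the E2F values was not tested. Depth ran from 2502792 reads, in endoderm S, up to 6203079, in hESC S. More regions had an unadjusted limma p under 0.05 in comparisons that involve G1/S. Such regions numbered 2002 (13.7%) for G1/S against G1, 1552 (10.6%) for S against G1/S and 497 (3.39%) for S against G1. After adjustment 0 regions passed in each.

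In endoderm the transcripts of both activators stood above their hESC level in every phase, and the test called both. The E2F3 call was kept in 17 of 18 alternative settings of the fit, and the E2F2 call in 12. E2F3 averaged 47.8 ± 29.9 in endoderm and 2.84 ± 0.41 in hESCs (signal, mean ± SD, n = 3 libraries each, which differ in phase), and E2F2 averaged 49.0 ± 22.2 in endoderm and 13.4 ± 8.61 in hESCs. Neither E2F5 region passed the test. TFDP2, which encodes a DP partner, fell in endoderm. Of 42 measured E2F target genes 1 passed the test (2.38%), beside 14.5% of all regions. Signal here is the number of reads in a region divided by a size factor for the library. The reads come from transcript ends, so signal does not grow with transcript length.

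The E2F2 and E2F3 promoters are shown because both genes were higher in endoderm and because E2F genes are known as targets of E2F proteins themselves. The sequences are RefSeq promoters on GRCh38.p14, 300 bases from 250 before to 50 after a transcript start, and capitals mark a match to an E2F site. The motif searched was TTTCGCGC, TTTGGCGC, TTTCCCGC or TTTGCCGC on either strand. The E2F2 window is chr1:23531184-23531483 on the minus strand, and the 2 windows of E2F3 are chr6:20401629-20401928 and chr6:20403364-20403663 on the plus strand.
E2F2: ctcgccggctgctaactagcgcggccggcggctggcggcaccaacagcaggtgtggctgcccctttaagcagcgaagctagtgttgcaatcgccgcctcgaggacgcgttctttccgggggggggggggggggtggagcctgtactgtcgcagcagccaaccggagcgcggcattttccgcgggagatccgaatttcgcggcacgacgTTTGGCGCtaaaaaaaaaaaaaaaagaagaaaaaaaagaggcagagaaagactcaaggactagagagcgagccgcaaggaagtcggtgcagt
E2F3 first start: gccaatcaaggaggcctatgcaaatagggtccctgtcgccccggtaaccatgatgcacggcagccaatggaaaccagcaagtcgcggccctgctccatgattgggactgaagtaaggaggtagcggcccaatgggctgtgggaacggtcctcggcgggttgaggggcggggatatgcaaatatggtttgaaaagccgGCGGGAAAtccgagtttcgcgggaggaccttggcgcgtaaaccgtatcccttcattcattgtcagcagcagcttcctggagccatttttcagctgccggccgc
E2F3 second start: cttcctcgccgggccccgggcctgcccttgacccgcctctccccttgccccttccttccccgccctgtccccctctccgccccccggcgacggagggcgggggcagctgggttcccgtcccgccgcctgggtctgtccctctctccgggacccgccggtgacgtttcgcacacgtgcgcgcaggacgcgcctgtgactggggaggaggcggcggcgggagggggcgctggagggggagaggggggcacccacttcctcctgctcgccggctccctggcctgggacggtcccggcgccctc
The E2F2 window holds 1 match, TTTGGCGC, whose first base lies 42 bases before the start, and the first E2F3 window holds 1, the reverse strand of TTTCCCGC, 53 bases before the start. The second E2F3 window holds 0 matches. A match is held by 3.31% of all 35116 RefSeq promoters. Of 57 promoters of genes of the E2F target list, 24 hold a match (42.1%). Counted by gene, 22 of 40 have a match in at least 1 window (55.0%), MCM6 among them. These matches describe letters in a window and are no measure of binding. E2F3 is known to make the isoforms E2F3a and E2F3b from separate starts. In GENCODE release 29, 3 coding E2F3 transcripts start at 3 positions over 1773 bases and end within 1 base of each other, so reads at the 3' end cannot tell the isoforms apart.

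E2F3, an activator that drives entry into S phase, had its region at chr6:20600097-20600276 on the plus strand of hg18, the build named in the submitters' processing notes. No exon or untranslated region is given for it, since annotation of that build was not used here. Its signal was 41.4, 21.6 and 80.4 in endoderm at G1, G1/S and S (60, 13 and 47 reads), against 3.03, 3.12 and 2.36 in hESCs at G1, G1/S and S (4, 3 and 4 reads). The lowest endoderm library stood above the highest hESC library. The hESC G1/S value sits at the 3 reads that an unseen transcript could have had there, and those of hESC G1 and S lie 1 read above that limit, so the hESC level is known only as low. At the same phase endoderm held 13.7 times the hESC signal in G1 (95% interval 5.08 to 51.9), 6.92 times in G1/S (1.90 to 37.9) and 34.0 times in S (12.4 to 130.1). Intervals on single libraries and on their ratios reflect counting error alone. PCR copies of a molecule are counted as separate reads, so the intervals may be too narrow even for that.

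In the fit over all regions with terms for cell type and phase, E2F3 rose in endoderm by a log2 difference of 3.48 ± 0.60 (SE) on the log2(signal + 1) scale, with a 95% interval from 2.07 to 4.89 (limma adjusted p = 0.0138, Benjamini-Hochberg over 14657 regions). The added 1 understates a change this near to 0. The difference ranks 154 from the top among the 14657 regions. With 1 library per type and phase, leaving out either library of a phase takes that phase out of the comparison of types. The difference was thus 2.93 with either S library left out. The call was lost without endoderm S (limma adjusted p = 0.0893) and kept without hESC S (0.0343). Without both G1/S libraries the call stood at a limma adjusted p of 0.0496. Over all 18 alternatives the adjusted p lay between 2.76e-05 and 0.0893. In bulk RNA, more cells with a transcript and more transcript per cell cannot be told apart.

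**Figure D1:**
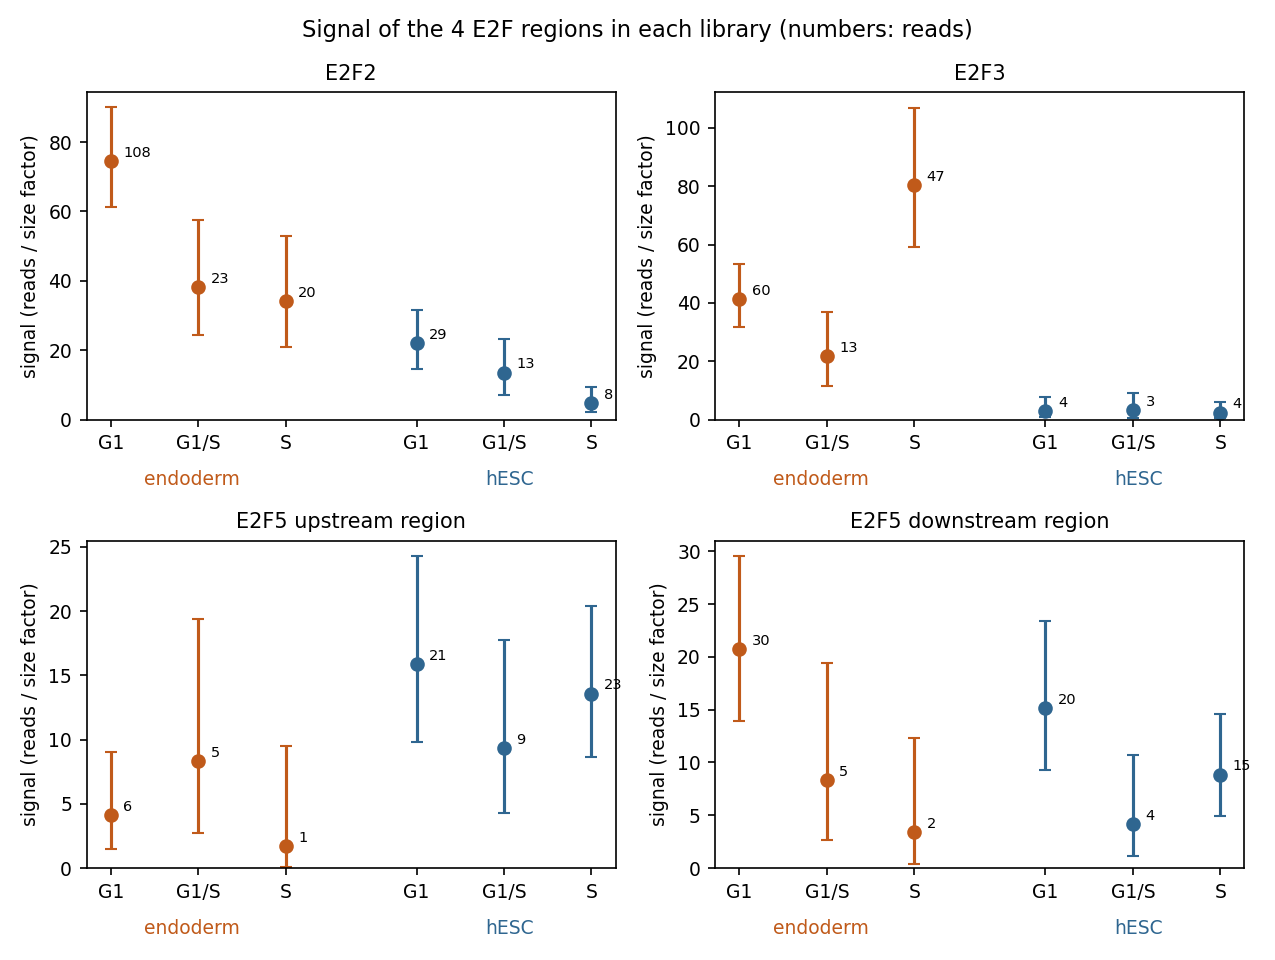
Signal (reads divided by the library's size factor, linear axis from 0) of the E2F2 region, the E2F3 region and the 2 E2F5 regions in each of the 6 libraries, endoderm in orange and hESC in blue, with 95% counting intervals as bars and the number of reads beside each point. The E2F3 points of endoderm lie between 21.6 and 80.4 and those of hESCs between 2.36 and 3.12.

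E2F2, the activator most closely related in its role to E2F1 and E2F3, had its region at chr1:23705582-23705767 on the minus strand of hg18. Its signal was 74.6, 38.3 and 34.2 in endoderm at G1, G1/S and S (108, 23 and 20 reads), against 21.9, 13.5 and 4.73 in hESCs at G1, G1/S and S (29, 13 and 8 reads). The types did not overlap, and in each of them G1 was highest and S lowest. In that order of 6 libraries only endoderm G1 (61.2 to 90.0) had a counting interval apart from that of its neighbour, endoderm G1/S (24.3 to 57.4). At the same phase endoderm held 3.40 times the hESC signal in G1 (2.24 to 5.31), 2.83 times in G1/S (1.37 to 6.08) and 7.24 times in S (3.06 to 19.0).

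E2F2 rose in endoderm by a log2 difference of 1.93 ± 0.44 (SE; 95% interval 0.89 to 2.96, limma adjusted p = 0.0312), rank 873 from the top. The difference was 2.17 with either G1/S library left out and 1.58 with either S library left out. The call was lost without hESC G1/S (limma adjusted p = 0.0906), hESC S (0.118), endoderm G1/S (0.0893) or endoderm S (0.142). These losses follow the phase left out and single out no library. The call was kept when either G1 library was left out. It was also lost without both G1/S libraries (0.0943) and without the phase term (limma adjusted p = 0.0555). The difference itself stayed between 1.58 and 2.19 over the 18 alternatives, with adjusted p between 0.0129 and 0.142.

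Of the 4 E2F regions 2 were thus called higher, where 6.90% of all regions were called higher, 7.60% lower and 14.5% in either direction. edgeR and DESeq2 also called 2, both higher. The genes were chosen with earlier results of these libraries known, so the count is not independent evidence.

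E2F5, a repressor that binds its pocket proteins in resting and early G1 cells, had an upstream region at chr8:86310487-86310626 and a downstream region at chr8:86313840-86314010, 3214 bases apart on the plus strand of hg18. The upstream region had a signal of 4.14, 8.32 and 1.71 in endoderm at G1, G1/S and S (6, 5 and 1 reads), against 15.9, 9.37 and 13.6 in hESCs at G1, G1/S and S (21, 9 and 23 reads). Every endoderm value lay below every hESC value, though at G1/S the pair differed by less than the counting error (ratio 0.888, 95% interval 0.234 to 2.95). The endoderm S value is under 5.13, the worth of 3 reads in that library. The ratio was 0.261 in G1 (0.0861 to 0.668) and 0.126 in S (0.00306 to 0.776). The log2 difference was -1.43 ± 0.71 (SE; 95% interval -3.10 to 0.24, limma adjusted p = 0.199), so the fit is compatible with a large fall and with no change.

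The downstream E2F5 region had a signal of 20.7, 8.32 and 3.42 in endoderm at G1, G1/S and S (30, 5 and 2 reads), against 15.1, 4.16 and 8.86 in hESCs at G1, G1/S and S (20, 4 and 15 reads). The types overlapped, and the log2 difference was 0.04 ± 0.67 (SE; 95% interval -1.51 to 1.59, limma adjusted p = 0.973). Its sign depends on the setting, and with both regions summed the difference was -0.65 (limma adjusted p = 0.442). The 2 regions had equal reads in endoderm G1/S and nearly equal reads in hESC G1, and differed more in the other libraries. The downstream region held 83.3% of the E2F5 reads in endoderm G1 (exact 95% interval 67.2% to 93.6%, 36 reads), 5 of 10 reads in endoderm G1/S (18.7% to 81.3%) and 66.7% in endoderm S (9.43% to 99.2%, 3 reads), against 48.8% in hESC G1 (32.9% to 64.9%, 41 reads), 30.8% in hESC G1/S (9.09% to 61.4%, 13 reads) and 39.5% in hESC S (24.0% to 56.6%, 38 reads). Only the G1 pair had intervals that did not overlap.

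The downstream E2F5 region shares 40 bases with the region of C8orf59, which lies on the opposite strand and runs toward it. C8orf59 had a signal of 11.7, 3.33 and 1.71 in endoderm at G1, G1/S and S (17, 2 and 1 reads), against 15.9, 7.29 and 13.6 in hESCs at G1, G1/S and S (21, 7 and 23 reads). Both were highest in G1 within endoderm. Whether reads were counted by strand is not given in the sources used here, so reads of the 2 genes may be shared there and the values of the downstream region are uncertain. The order of start and end in the table matches the annotated strand for 99.7% of 8834 named regions. No other region of the table lies within 51240 bases of E2F2 or within 350297 bases of E2F3. GENCODE release 29 gives 6 coding E2F5 transcripts with 5 distinct ends over 2172 bases, on another build, so these ends were not matched to the regions.

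Phase was then compared within the same fit, whose phase terms are shared by endoderm and hESCs. None of the 4 regions passed for G1/S against G1, for S against G1 or for S against G1/S, by limma or edgeR, and the share of all regions called by limma was 0.00% in each. DESeq2 called 0 as well, but gave the 2 E2F5 regions no adjusted p for G1/S against G1 or for S against G1/S, so it tested the other 2 regions there. At an unadjusted p under 0.05, limma, edgeR and DESeq2 each had 0, 1 and 0 of the 4 regions in these comparisons. That 1 was E2F2 in S against G1, at -1.55 ± 0.54 (SE, limma adjusted p = 0.982), in a comparison where 3.39% of all regions had such a p. Within endoderm the E2F2 signal in S was 0.459 times that in G1 (0.270 to 0.744), and within hESCs 0.215 times (0.0851 to 0.483), so both intervals lay below 1.

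For S against G1 the E2F3 difference was 0.34 ± 0.74 on the log2 scale (SE, limma adjusted p = 0.989), and its types could not be compared closely. Within endoderm S held 1.94 times the G1 signal (1.30 to 2.89) and 3.72 times that of G1/S (1.98 to 7.49), while G1/S held 0.522 times that of G1 (0.263 to 0.962). Within hESCs the ratio of S to G1 was 0.781, with an interval from 0.145 to 4.19 that also holds the endoderm ratio. The downstream E2F5 region was lower in endoderm S than in endoderm G1 (ratio 0.165, 0.0191 to 0.651), though the S value rests on 2 reads and is under 5.13, the worth of 3 reads there. The upstream region had too few endoderm reads to tell (0.413, 0.00898 to 3.41). Each of these within-type ratios compares 2 libraries, not the conditions.

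**Figure D2:**
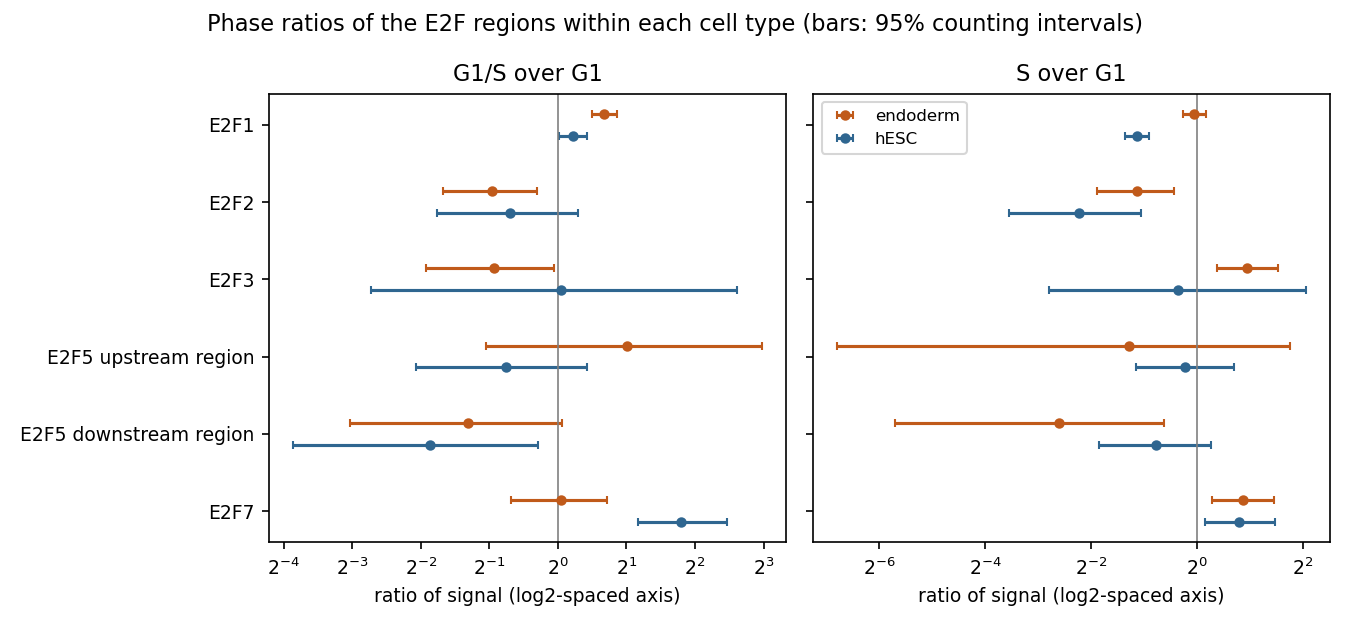
Ratio of signal in G1/S over G1 (left) and S over G1 (right) for 6 E2F regions within endoderm (orange) and hESCs (blue), on a log2-spaced axis with 95% counting intervals. For S over G1, E2F2 lies below 1 in both types and E2F3 above 1 in endoderm (1.94), with a wide hESC interval.

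Of the 8 E2F symbols listed, 5 had a region, and E2F4, E2F6 and E2F8 had 0 in the table used here. E2F1, the best known activator, had a signal of 428.1, 685.4 and 414.2 in endoderm at G1, G1/S and S, against 318.5, 370.6 and 145.9 in hESCs at G1, G1/S and S. The types did not overlap, but the difference did not pass (log2 difference 0.94 ± 0.29 SE, limma adjusted p = 0.0714), although it did without either G1 library (1.19, adjusted p = 0.0239 without hESC G1 and 0.0245 without endoderm G1). E2F7, an atypical member that represses E2F targets later in the cycle, had 42.1, 43.3 and 77.0 in endoderm at G1, G1/S and S, against 22.7, 79.1 and 39.6 in hESCs at G1, G1/S and S, and overlapped between the types (0.32 ± 0.46 SE, limma adjusted p = 0.651). The E2F family as a list had 2 of 5 members higher and 0 lower, beside 6.90% of all regions higher and 7.60% lower, with a median log2 difference of 0.94 beside 0.02 over all regions, counting E2F5 by its downstream region, the one with the higher mean.

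Shares within a library do not depend on its size factor. E2F3 made up 6.78% of the reads of the 5 E2F genes in endoderm G1 (exact 95% interval 5.21% to 8.64%), 2.69% in endoderm G1/S (1.44% to 4.55%) and 13.2% in endoderm S (9.84% to 17.1%), against 0.762% in hESC G1 (0.208% to 1.94%), 0.651% in hESC G1/S (0.134% to 1.89%) and 1.10% in hESC S (0.3002% to 2.79%). Its interval in G1 and in S did not overlap that of the other type, while at G1/S the intervals overlapped. E2F2 made up 12.2%, 4.75% and 5.60% in endoderm at G1, G1/S and S, against 5.52%, 2.82% and 2.20% in hESCs at G1, G1/S and S. The E2F2 intervals were apart in G1 alone (10.1% to 14.5% in endoderm, 3.73% to 7.84% in hESCs) and overlapped at G1/S and at S. E2F1 held most of the reads in every library, between 67.8% and 85.1% in endoderm and between 67.9% and 80.2% in hESCs.

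Of the 2 measured DP partners, with which E2F proteins bind DNA, 1 passed the test and was lower. Over all regions 7.60% were called lower and 14.5% in either direction, and a count among 2 genes says little. TFDP2 had a signal of 233.4, 339.4 and 116.4 in endoderm at G1, G1/S and S, against 742.9, 893.3 and 627.3 in hESCs at G1, G1/S and S. It fell in endoderm by 1.83 on the log2(signal + 1) scale (SE 0.29, limma adjusted p = 0.0102), a call lost without the hESC G1/S library (adjusted p = 0.0570) and without both G1/S libraries (0.0572). TFDP1 had 78.0, 143.1 and 78.7 in endoderm at G1, G1/S and S, against 96.1, 111.4 and 150.6 in hESCs at G1, G1/S and S, and the types overlapped (-0.29 ± 0.35 SE, limma adjusted p = 0.586). The pocket protein genes RB1, RBL1 and RBL2 had 0 regions in the table used here, so the partners that hold E2F in check were not measured.

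**Figure D3:**
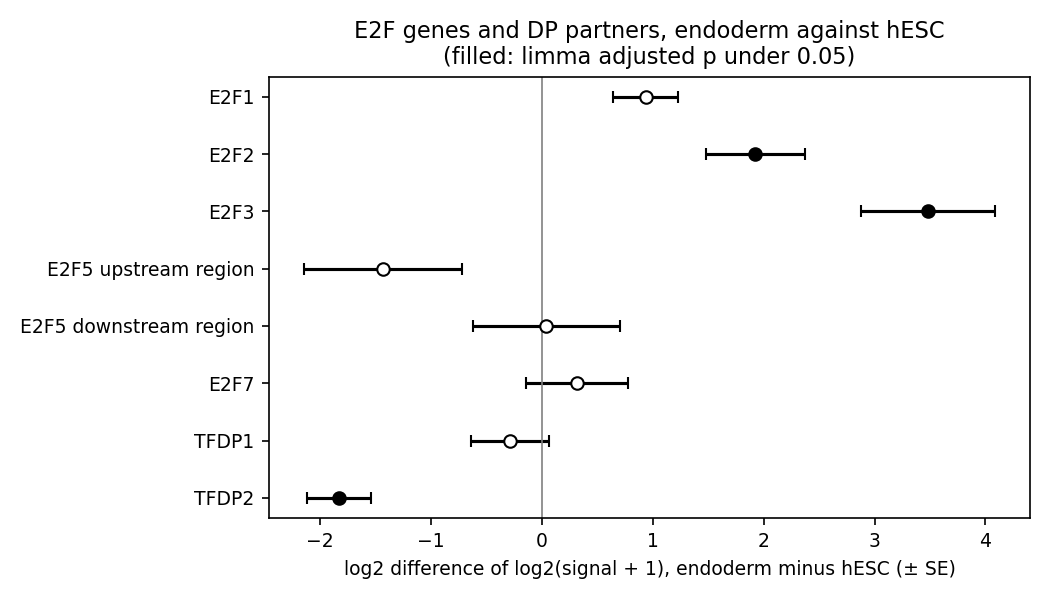
Difference of log2(signal + 1), endoderm minus hESC, with its SE, for the regions of E2F1, E2F2, E2F3, E2F5 and E2F7 and of the DP partners TFDP1 and TFDP2; filled points passed limma at an adjusted p under 0.05. E2F3 (3.48) and E2F2 (1.93) lie to the right and TFDP2 (-1.83) to the left.

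Upstream of the E2F proteins, 3 of 15 measured G1 cyclins, kinases, inhibitors and related genes rose and 1 fell (median log2 difference 1.24, beside 0.02 over all regions, where 14.5% were called). CDKN1C, an inhibitor of cyclin-dependent kinases, averaged 729.7 ± 224.4 in endoderm and 168.2 ± 42.3 in hESCs (SD, n = 3 libraries each). CDKN2A, whose products include an inhibitor of CDK4 and CDK6, averaged 203.6 ± 136.7 in endoderm and 34.5 ± 13.1 in hESCs (SD, n = 3 libraries each). The third was MYC, a growth factor-responsive transcription factor (log2 difference 1.91, limma adjusted p = 0.0443), whose call was lost whichever library was left out. CDKN1A, the inhibitor induced by p53, fell by 1.30 on that scale, a call lost without either G1/S library, either S library, the phase term or the intensity trend. CDKN1C was lost without either G1/S library and CDKN2A was kept in all 6 such fits. The count of 4 calls was 1 without either G1/S library and 2 without either S library. Cyclin D1 (CCND1, 0.48 ± 0.28 SE, limma adjusted p = 0.257) and cyclin E1 (CCNE1, -0.38 ± 0.26 SE, limma adjusted p = 0.334) did not pass.

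Downstream, the list of E2F target genes held mainly replication, nucleotide synthesis, repair, cell-cycle and chromatin genes. It shares E2F1 with the family list, CCNE1 and further genes with the list of G1 genes, and MYBL2 with the DREAM genes below. Of the list 42 genes were measured. Of these 1 rose and 0 fell in endoderm (2.38%, beside 14.5% of all regions), with a median log2 difference of -0.10 beside 0.02. The 1 was MCM6, a subunit of the replicative helicase, at 131.9 ± 65.5 in endoderm and 32.6 ± 5.08 in hESCs (SD, n = 3 libraries each; log2 difference 1.86 ± 0.36 SE, limma adjusted p = 0.0193). Its call was lost without either G1/S library and without hESC S. The other helicase subunits MCM2, MCM3, MCM4, MCM5 and MCM7 had log2 differences between -0.17 and 0.19. CDC6, which loads that helicase, averaged 58.3 ± 32.7 in endoderm and 141.6 ± 76.4 in hESCs and did not pass (limma adjusted p = 0.0747). The count of target genes past the threshold was 4 without either G1 library and 0 without either G1/S library or without hESC S.

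**Figure D4:**
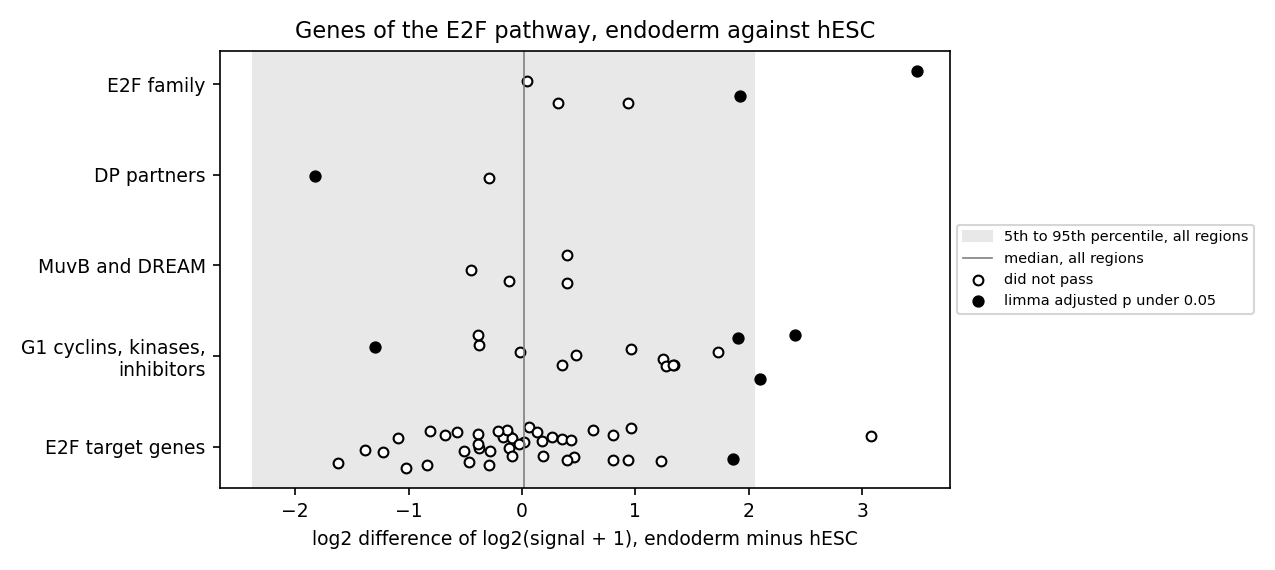
Difference of log2(signal + 1), endoderm minus hESC, for each measured gene of 5 lists of the E2F pathway, with filled points past limma's adjusted p of 0.05 and a grey band from the 5th to the 95th percentile of all regions. Of the 42 E2F target genes 1 is filled, MCM6, while E2F3 (3.48), EZH2 (3.08, a target gene that did not pass), CDKN2A (2.41) and CDKN1C (2.10) stand to the right of the band.

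Partners of the pocket proteins in the DREAM complex, which represses cell-cycle genes in G0 and G1, had 4 measured members (LIN37, RBBP4, MYBL2 and FOXM1, counting the late cell-cycle factors that join its core). With limma 0 of these passed and 0 had an unadjusted p under 0.05, and edgeR and DESeq2 called 0. Over all regions limma called 14.5%, and 34.2% had such an unadjusted p, so a count of 0 among 4 genes says little. Their log2 differences lay between -0.45 and 0.40.

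For phase, 34 of the 42 E2F target genes had a negative log2 difference in S against G1 (median -0.25, beside 0.00 over all regions) and 29 in G1/S against G1 (median -0.64, beside 0.07). With limma 0 passed in either comparison, with 3 and 11 of the 42 at an unadjusted p under 0.05, beside 3.39% and 13.7% of all regions. edgeR called 0 and 0 of the 42. DESeq2 called 0 and 2 of the 42, beside 1 and 89 of all 14657 regions.

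Genes whose pattern over the 6 libraries was most like that of each member were found by Pearson's r of log2(signal + 1), among named regions of other genes with a mean signal of at least 20. For E2F3 these were SH3BP4 (r = 0.998), CGN (0.996), SERINC1 (0.994), MESDC1 (0.992) and ST8SIA2 (0.992). For E2F2 they were C9orf86 (0.995), PHF20 (0.974), BCORL1 (0.969), DYM (0.965) and C17orf71 (0.963). SH3BP4 had a signal of 102.9, 69.9 and 131.8 in endoderm at G1, G1/S and S, against 25.0, 27.1 and 23.0 in hESCs at G1, G1/S and S, the order of levels that E2F3 had in endoderm. For the downstream E2F5 region they were SF3B14 (0.995), TMEM77 (0.984), RPL36AL (0.978), BAX (0.974) and KIAA0088 (0.963). With 6 points that share libraries and about 8040 candidates, high values arise readily, and E2F2 and E2F3 themselves had r = 0.79.

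**Figure D5:**
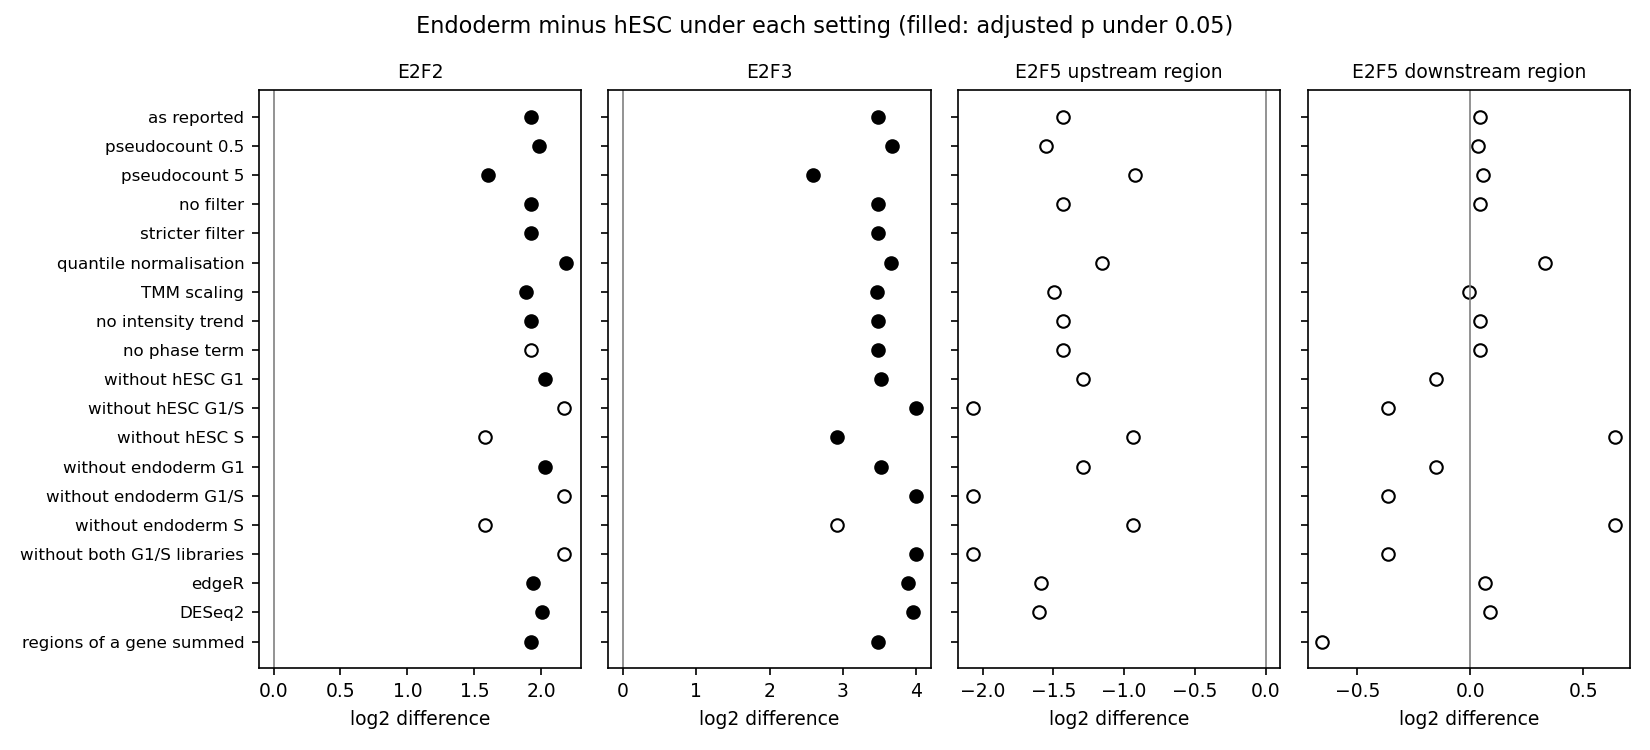
Difference of log2(signal + 1), endoderm minus hESC, of the 4 E2F regions as reported and under each alternative setting, with filled points at an adjusted p under 0.05. E2F3 is filled in all but the fit without endoderm S, while E2F2 is filled in 12 of 18 alternatives and the downstream E2F5 region lies on both sides of 0.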

How the data were processed

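RNA from 6 libraries was read at transcript 3' ends after oligo(dT) selection and 15 PCR cycles, per the labels' protocols. The authors deposited 1 table of signal values per region. Tools listed in the submitters' processing notes are Bowtie 0.12.7, DESeq 1.5.24 and CASAVA 1.5, and builds are NCBI36 and hg18, with no roles stated. The deposited signal is linear: at a tolerance of 1e-06, 100% of values per library are whole reads divided by 1 size factor, which equals the median-of-ratios factor recomputed from the reads. The value of 1 read lies between 0.591 (hESC S) and 1.71 (endoderm S), and the limit for an unseen transcript, 3 reads, is worth 1.77 to 5.13. Columns of values left unused number 0.

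Regions with log2(signal + 1) of at least 1 in at least 3 libraries were kept (14657 of 14686, all 4 E2F regions among them). limma 3.58.1 in R 4.3.3 fitted cell type and phase over the 6 libraries with an intensity trend, with 2 degrees of freedom left and a prior worth 5.46 more. Benjamini-Hochberg adjustment was used, with a threshold of 0.05. No label says that libraries came from separate cultures. With 1 library per type and phase, the p-values rest on how far libraries depart from the sum of a type and a phase term. Such departures mix true differences in phase course between the types with variation between libraries, which may be technical. Phase is the block that pairs the types. edgeR 4.0.16 and DESeq2 1.42.0 on the recovered reads were alternatives, and called 1990 and 2780 regions for endoderm against hESC, beside 2125 with limma. Other pseudocounts, filters, scalings and omitted libraries were also tried. Single libraries have exact Poisson intervals, ratios intervals conditional on the total, and shares exact Clopper-Pearson intervals, at 95%. A gene with several regions is represented in lists by that with the highest mean. The genes named are the E2F and DP genes, list members past the threshold, CCND1, CCNE1, CDC6 and MCM6, and the 5 most alike per member. The other MCM genes, the DREAM genes, EZH2, the levels of SH3BP4 and C8orf59 were chosen after their values were seen. The members and lists were chosen with earlier results of these data known.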

Additional observations from a re-analysis of the deposited data

Results flagged for a closer look

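Within each cell type 1 library stands for a phase, so the following directions were not tested against each other. The ratio of S to G1/S of E2F7 was 1.78 in endoderm (95% counting interval 1.08 to 3.01) and 0.5002 in hESCs (0.355 to 0.704), opposite directions with both intervals away from 1. For TFDP1 the ratio was 0.550 in endoderm (0.376 to 0.796) and 1.35 in hESCs (1.07 to 1.71), likewise opposite. Among the regions of E2F2, E2F3 and E2F5, 0 met the same condition. Few reads make intervals wide there, as for E2F3 in hESCs (0.756, 0.128 to 5.16), so this 0 says little. The share of all regions that would meet it is not given here.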

How the results depend on the processing

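The count of 4 E2F regions past the threshold, 2 as reported, ranged from 0 to 2 with each library left out in turn, was 1 without both G1/S libraries and 1 without the phase term (no replicate block). E2F2 (1.93) was at 1.93 without that block and at 2.17 without both G1/S libraries, past the threshold in neither, and ranged from 1.58 to 2.17 with each library left out. E2F3 (3.48) ranged from 2.93 to 3.998. The cause of these losses was not tested. The upstream E2F5 region ranged from -2.07 to -0.93 and never passed. The downstream E2F5 region (0.04) ranged from -0.36 to 0.64, and was at -0.0056 with TMM scaling, -0.36 without both G1/S libraries and -0.65 with the gene's regions summed. Neither E2F5 region was left under the stricter filter, which kept 9964 regions. TFDP1 (-0.29) ranged from -0.61 to 0.031.

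Among phase differences, none past the threshold, E2F3 ranged from -1.21 to 0.33 for G1/S against G1, from -0.50 to 1.18 for S against G1 (-0.25 with quantile normalisation) and from -0.059 to 1.61 for S against G1/S. The upstream E2F5 region ranged from -0.88 to 1.04 for G1/S against G1 (-0.022 with edgeR), from -1.31 to 0.18 for S against G1 and from -1.60 to 0.31 for S against G1/S. The downstream region ranged from -0.97 to 0.83 for S against G1/S (0.23 with edgeR and 0.11 with DESeq2). Over all regions, calls for endoderm against hESC numbered 2125, against 415 without both G1/S libraries, 419 without hESC G1/S, 571 without endoderm G1/S, 975 without hESC S, 1200 without endoderm S and up to 2344 without a G1 library. Phase calls over all regions, 0 with limma and edgeR, numbered 89 for G1/S against G1, 1 for S against G1 and 150 for S against G1/S with DESeq2, and at most 329, 201 and 245 with a library left out, the first and last without hESC G1 and the other without endoderm G1. Few reads limit the E2F3 ratios, with 3 or 4 reads in each hESC library, and the E2F5 ratios in S, with 1 and 2 reads in endoderm.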
